A study of Mus musculus with 20 samples.

Results

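The 10 transcripts described here encode neuropeptides of intact or injured sensory neurons of the dorsal root ganglion (DRG). They were taken by gene symbol from the 78258 gene identifiers of a count table. Of these 10, 4 were grouped as injury-induced peptides: galanin (Gal), neuropeptide Y (Npy), vasoactive intestinal peptide (Vip) and neurotensin (Nts). The other 6 are resident peptides, made by subsets of intact neurons: the α and β forms of calcitonin gene-related peptide (Calca, Calcb), the substance P precursor (Tac1), somatostatin (Sst), pituitary adenylate cyclase-activating polypeptide (PACAP, Adcyap1) and B-type natriuretic peptide (Nppb). Adcyap1 was grouped with the resident peptides although it is also known to rise after axotomy. Nor were all of the injury-induced group scarce without a lesion on their side. Per length, control contralateral ganglia had more Gal than Nppb, and Nts overlapped Sst.

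The ganglia were lumbar L4 to L6 DRG of 10 male mice. All mice received tamoxifen once a day on 5 days at 17 weeks of age (100 mg/kg, intraperitoneal); the sciatic nerve was cut 4 weeks later, and the ganglia were taken 1 day after the cut. The conditional knockout (cKO) mice were Ahr fl/fl Thy1CRE-ERT2/EYFP, with a tamoxifen-dependent Cre recombinase under the Thy1 promoter acting on floxed Ahr, which encodes the aryl hydrocarbon receptor. The controls were described as Ahr f/f or f/+. The library names read ff for every control mouse and ffcre for every cKO mouse. Which control, if any, carried f/+ is not given. Each mouse gave a library of the side opposite the lesion (contralateral) and a library of the lesioned side (ipsilateral), so that there were 4 groups of 5 libraries. The contralateral ganglia came from lesioned mice and are not from unoperated animals. The treatment tag reads as a lesion of the spinal cord, whereas the protocol text describes the sciatic cut given here.

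A neuropeptide is cut from a larger precursor, stored in dense-core vesicles and released on firing, and acts on G-protein-coupled or, for natriuretic peptides, guanylyl cyclase receptors. In intact DRG, CGRP and substance P mark many small nociceptive neurons, and Sst and Nppb mark a small population that signals itch. After a peripheral nerve is cut, the injured neurons are known to make more galanin, neuropeptide Y, VIP and PACAP, and over days to weeks to make less CGRP and substance P. In whole ganglia, fewer cells of a type and less RNA per cell cannot be told apart.

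Libraries held 76.2 to 118.5 M counts, and levels are given as CPM (counts scaled to library size by the TMM method). The 22 sensory neuron markers were all detected, at a summed 15400 to 18462 CPM per library. Atf3, an injury-induced transcription factor, had 8.46 to 13.8 CPM in contralateral and 370 to 462 CPM in ipsilateral libraries. Contralateral levels of Ahr, the targeted gene, were 24.2 ± 2.10 CPM (control) and 20.4 ± 0.536 CPM (cKO; SD, n = 5), and ipsilateral levels 34.4 ± 2.86 and 31.9 ± 2.94 CPM. Neither difference in Ahr passed the test (log2 fold changes of -0.25 and -0.11, edgeR adjusted p 0.103 and 1.00). The Cre was under the Thy1 promoter, and in which cells it acted was not tested. Contralaterally the groups did not overlap (21.3 to 27.2 CPM in control, 19.5 to 21.0 CPM in cKO libraries), and ipsilaterally they did. Counts over the whole gene do not show the deleted part by itself. Thy1, whose promoter drives the Cre, had 602 to 699 CPM in control and 944 to 1176 CPM in cKO libraries, with no overlap on either side. Fold changes below come from edgeR's quasi-likelihood test over 28564 genes, and a gene was called at a Benjamini-Hochberg adjusted p under 0.05. The labels tell the libraries apart by mouse; values per library are listed below in the order of mice 62, 63, 65, 96 and 97 for control and 61, 64, 95, 99 and 100 for cKO.

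The start of a peptide gene is where cyclic AMP and injury signals are known to act, and 5 promoter stretches are shown because they hold letters of the motifs searched. Sequences are from RefSeq (build GRCm38.p6); of the 10 genes, 9 had a promoter entry, Calcb being the exception. The stretches, 100 bases each, 5′ to 3′ on the strand of the gene, lie at chr17:93198887-93198986 (plus strand, Adcyap1), chr10:5639098-5639197 (plus, Vip), chr16:23890845-23890944 (minus, Sst), chr10:102490549-102490648 (minus, Nts) and chr6:7554931-7555030 (plus, Tac1).
Adcyap1: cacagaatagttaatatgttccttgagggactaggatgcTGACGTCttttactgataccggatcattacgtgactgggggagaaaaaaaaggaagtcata
Vip: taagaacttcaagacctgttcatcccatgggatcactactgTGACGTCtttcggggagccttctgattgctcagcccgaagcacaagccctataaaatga
Sst: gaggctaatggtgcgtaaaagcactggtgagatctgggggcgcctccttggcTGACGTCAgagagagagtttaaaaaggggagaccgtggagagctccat
Nts: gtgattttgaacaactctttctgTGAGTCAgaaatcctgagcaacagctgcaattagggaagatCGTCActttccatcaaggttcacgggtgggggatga
Tac1: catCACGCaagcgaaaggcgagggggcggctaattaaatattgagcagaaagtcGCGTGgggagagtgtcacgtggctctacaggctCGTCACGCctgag

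Capitals mark 5 motifs searched on both strands in the 250 bases before each start. The full cyclic AMP response element TGACGTCA was found in Sst alone among the 9 promoters, against 1.55% of 32851 mouse promoters. Its shorter core TGACG was found in 6 of the 9 (Vip, Nts, Calca, Tac1, Sst and Adcyap1), against 17.8% of all promoters. The AP-1 motif TGANTCA was found in Nts alone (6.75% of all promoters), and the core of the xenobiotic response element bound by the aryl hydrocarbon receptor, GCGTG, in Npy, Tac1 and Sst (28.2%). TGACGTC, which lies inside the full element and contains that core, was searched after the promoters had been seen; it was found in Vip, Sst and Adcyap1, against 2.78% of all promoters. The E-box CANNTG was also searched and is not capitalised; it was found in 5 of the 9, against 66.2% of all promoters. CGTCA and CACGC are TGACG and GCGTG read on the other strand, and the rightmost pair of them in Tac1 overlap. A match describes letters only, and the shown stretches were chosen for their matches.

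Gal (ENSMUSG00000024907.8), which encodes a peptide that modulates nociception and neuronal survival, rose about 3-fold on the lesioned side in both genotypes. In control mice the contralateral libraries had 18.8, 15.6, 17.1, 15.5 and 14.5 CPM, and the ipsilateral libraries 53.8, 57.0, 59.0, 49.96 and 50.8 CPM. In cKO mice the contralateral libraries had 15.1, 14.5, 27.8, 12.5 and 27.0 CPM, and the ipsilateral libraries 63.5, 62.8, 57.4, 46.5 and 54.5 CPM. No contralateral library reached the lowest ipsilateral one, and mice 95 and 100 stood apart as the high contralateral cKO libraries. The fitted log2 fold change was 1.73 (SE 0.188, edgeR adjusted p 1.39e-06) in control and 1.55 (SE 0.187, edgeR adjusted p 4.23e-06) in cKO mice. Gal was higher ipsilaterally in 10 of 10 mice, by 2.86- to 3.65-fold in control and 2.02- to 4.35-fold in cKO mice.

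Npy (ENSMUSG00000029819.7), the precursor of a peptide better known from sympathetic and brain neurons, went from a trace to a clear signal, the highest fold change of the 10 in either genotype. Control contralateral libraries had 0.127, 0.294, 1.28, 0.415 and 0.399 CPM, and control ipsilateral libraries 5.07, 7.60, 7.44, 4.44 and 5.38 CPM. In cKO mice the contralateral libraries had 0.0455, 0.0507, 0.755, 0.205 and 0.174 CPM, and the ipsilateral libraries 11.8, 7.23, 6.03, 4.57 and 4.67 CPM. The sides did not overlap in either genotype, while the contralateral values rest on 4 to 129 counts. The log2 fold change was 3.55 (SE 0.565, edgeR adjusted p 1.05e-04) in control and 4.77 (SE 0.620, edgeR adjusted p 1.21e-05) in cKO mice. These sizes lean on single contralateral libraries: the log2 fold change was 4.18 without control mouse 65 and 5.89 without cKO mouse 95, the highest contralateral library of each genotype. Markers of sympathetic neurons, another source of Npy, were at or near 0 in 7 of 8 genes, each under 1 CPM on average in all 4 groups. Dbh, which makes noradrenaline, averaged 0.0703 to 0.168 CPM over the groups. The summed list, nearly all of it Chrna3, ran from 8.33 to 42.8 CPM in contralateral and from 15.3 to 20.4 CPM in ipsilateral libraries. Its highest values, 42.8 and 32.5 CPM, were those of cKO contralateral mice 95 and 100, whose Npy was 0.755 and 0.174 CPM. Control mouse 65, with the highest contralateral Npy of all (1.28 CPM), had a summed list of 15.4 CPM, the lowest of its group. The part of the list in the Npy values was not tested. Of the 5 tested genes of the list, 1 was called in each genotype (Phox2a, log2 fold changes of 2.95 and 2.33), against 29.9% and 31.3% of all genes.

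Vip (ENSMUSG00000019772.6), whose peptide relaxes smooth muscle and supports injured neurons, was barely detected. Counts per library were 4, 8, 2, 8 and 6 in control contralateral, 9, 4, 14, 16 and 20 in control ipsilateral, 8, 0, 8, 2 and 11 in cKO contralateral and 24, 32, 26, 6 and 4 in cKO ipsilateral libraries. The sides overlapped in both genotypes, and 4 of 5 mice of each genotype had more on the lesioned side. The log2 fold change was 1.25 (SE 0.608, edgeR adjusted p 0.134) in control and 1.33 (SE 0.586, edgeR adjusted p 0.0919) in cKO mice, neither of which passed the test. Without mouse 100 the cKO value was 1.94 (edgeR adjusted p 0.0250), and with mice 95 and 100 left out it was 2.26 (edgeR adjusted p 0.0475). Both of these passed. When each mouse was left out in turn the cKO value ran from 0.80 to 1.94, and over all alternatives the adjusted p ran from 0.0250 to 0.356. Vip entered the test with 1 of 10 contralateral and 6 of 10 ipsilateral libraries at 10 counts or more.

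Nts (ENSMUSG00000019890.5), whose peptide acts in gut and brain and lowers pain responses, rose less than Gal. Control contralateral libraries had 13.6, 9.95, 9.53, 13.6 and 12.0 CPM, and control ipsilateral libraries 18.2, 17.9, 19.9, 20.5 and 17.9 CPM. The cKO contralateral libraries had 8.13, 11.5, 9.29, 8.01 and 7.96 CPM, and the cKO ipsilateral libraries 19.1, 25.0, 19.3, 14.4 and 13.3 CPM. Every ipsilateral library was above every contralateral library of its genotype. The log2 fold change was 0.68 (SE 0.152, edgeR adjusted p 0.00191) in control and 1.02 (SE 0.154, edgeR adjusted p 4.18e-05) in cKO mice.

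**Figure D1:**
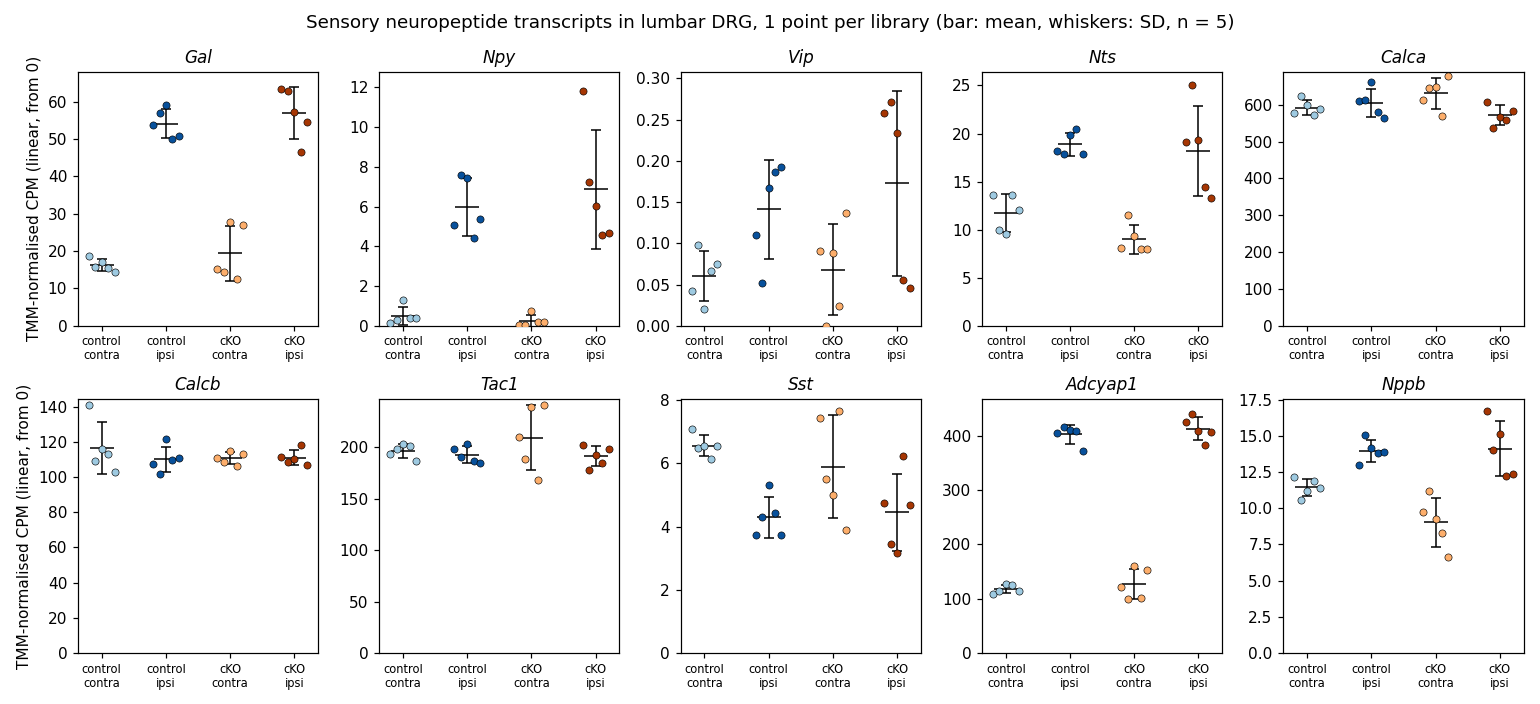
TMM-normalised CPM (y axes, linear from 0, scaled per gene) of the 10 peptide genes in the 4 groups (x axis); each point is 1 library, the horizontal bar the mean and the whiskers the SD of 5 libraries. Gal, Npy, Nts and Adcyap1 lie higher on the ipsilateral side with no overlap, the sides of Calca, Calcb and Tac1 overlap, and 2 cKO contralateral libraries are high for Gal (27.8 and 27.0 CPM).

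Adcyap1 (ENSMUSG00000024256.8) was the resident peptide that rose by as many fold as Gal. PACAP, its product, raises cyclic AMP in target cells and promotes survival of neurons. Control contralateral libraries had 109, 114, 127, 124 and 115 CPM, and control ipsilateral libraries 404, 416, 410, 409 and 372 CPM. The cKO contralateral libraries had 121, 100.3, 161, 102 and 152 CPM, and the cKO ipsilateral libraries 425, 440, 409, 383 and 407 CPM. The sides were far apart in both genotypes, and mice 95 and 100 again had the highest contralateral values. The log2 fold change was 1.77 (SE 0.106, edgeR adjusted p 2.71e-10) in control and 1.70 (SE 0.106, edgeR adjusted p 3.85e-10) in cKO mice, the smallest adjusted p-values among the 10 peptides in these fits.

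Sst (ENSMUSG00000004366.5), which encodes a peptide that inhibits release from its target cells, was the resident peptide that fell in control mice. Control contralateral libraries had 7.09, 6.49, 6.54, 6.13 and 6.56 CPM, and control ipsilateral libraries 3.72, 4.31, 5.30, 4.42 and 3.73 CPM, with no overlap. The cKO contralateral libraries had 7.43, 5.51, 4.98, 7.67 and 3.89 CPM, and the cKO ipsilateral libraries 4.73, 3.46, 3.16, 6.23 and 4.70 CPM, which overlapped. In control mice Sst fell by 0.61 on the log2 scale (SE 0.182, edgeR adjusted p 0.0147) and was lower in 5 of 5 mice. The call was lost without control mouse 62 (edgeR adjusted p 0.0732), 63 (0.0517) or 97 (0.0698), and the adjusted p ran from 2.27e-04 to 0.0732 over all alternatives. In cKO mice the log2 fold change was -0.41 (SE 0.181, edgeR adjusted p 0.0986), and 4 of 5 mice were lower, mouse 100 being higher. With mouse as a replicate block the cKO value was -0.41 (edgeR adjusted p 0.0326), and without mouse 100 it was -0.54 (edgeR adjusted p 0.0360), both of which passed; the adjusted p ran from 0.0326 to 0.253 over all alternatives.

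Nppb (ENSMUSG00000029019.9), the transmitter of itch neurons, did not follow Sst, with which it is known to share those neurons. Control contralateral libraries had 12.1, 10.6, 11.2, 11.9 and 11.4 CPM, and control ipsilateral libraries 12.96, 15.1, 14.2, 13.8 and 13.8 CPM. The cKO contralateral libraries had 9.75, 11.2, 9.24, 8.29 and 6.63 CPM, and the cKO ipsilateral libraries 16.7, 14.04, 15.1, 12.2 and 12.4 CPM. The sides did not overlap, and 10 of 10 mice were higher on the lesioned side. The log2 fold change was 0.29 (SE 0.104, edgeR adjusted p 0.0407) in control and 0.65 (SE 0.104, edgeR adjusted p 6.48e-05) in cKO mice. The control call was lost without mouse 63, 65, 96 or 97 (edgeR adjusted p 0.0703 to 0.161), and over all alternatives the adjusted p ran from 4.99e-04 to 0.161. Of 6 other genes known from the Sst and Nppb neurons (Il31ra, Osmr, Cysltr2, Htr1f, Ptgdr, Jak1), 1 was called higher and 1 lower after injury in control mice, and 4 higher and 1 lower in cKO mice; over all genes 29.9% and 31.3% were called in control and cKO mice.

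Calca, Calcb and Tac1, the abundant peptides of nociceptors, moved little 1 day after the cut, with log2 fold changes of -0.14 to 0.03. Calca (ENSMUSG00000030669.14) had 578, 623, 600.2, 572 and 587 CPM in control contralateral and 610, 614, 662, 579 and 565 CPM in control ipsilateral libraries, a log2 fold change of 0.03 (SE 0.0476, edgeR adjusted p 0.661). In cKO mice it had 613, 645, 647, 570 and 678 CPM contralaterally and 609, 537, 567, 559 and 584 CPM ipsilaterally. There Calca fell by 0.14 on the log2 scale (SE 0.0476, edgeR adjusted p 0.0260) and was lower in 5 of 5 mice, although the groups overlapped. That call was lost without mouse 64 (edgeR adjusted p 0.134), 95 (0.120) or 100 (0.0919). With mice 95 and 100 left out the value was -0.10 (edgeR adjusted p 0.301), and over all alternatives the adjusted p ran from 0.0119 to 0.301. Exonic counts of Calca cannot separate its calcitonin and CGRP transcripts.

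Calcb (ENSMUSG00000030666.12) ranged from 103 to 141 CPM in control contralateral, 102 to 121 CPM in control ipsilateral, 107 to 115 CPM in cKO contralateral and 107 to 118 CPM in cKO ipsilateral libraries. Its log2 fold changes were -0.08 (SE 0.0621) in control and 0.00 (SE 0.0621) in cKO mice, and neither passed the test (edgeR adjusted p 0.389 and 0.978). Tac1 (ENSMUSG00000061762.13) ranged from 187 to 203 CPM in control contralateral and 185 to 204 CPM in control ipsilateral libraries. In cKO mice it ranged from 168 to 241 CPM contralaterally, with mice 95 and 100 at 239 and 241 CPM, and from 178 to 202 CPM ipsilaterally. Its log2 fold changes were -0.03 (SE 0.0722) and -0.13 (SE 0.0722), and neither passed the test (edgeR adjusted p 0.822 and 0.184); without cKO mouse 99 the cKO value was -0.18 (edgeR adjusted p 0.0271; 0.0271 to 0.984 over all alternatives), which passed, and with mice 95 and 100 left out it was -0.0028 (edgeR adjusted p 0.984).

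Counted over the 10 peptides, 6 were called in control mice (5 higher, 1 lower), against 29.9% of all genes tested (13.8% higher, 16% lower). In cKO mice 6 were called as well (5 higher, 1 lower), against 31.3% of all genes (16.2% higher, 15.1% lower). Of the 4 injury-induced peptides, 3 rose in each genotype; of the 6 resident peptides, 2 rose (Adcyap1 and Nppb) and 1 fell (Sst in control, Calca in cKO mice). The sides did not overlap for 6 of the 10 in control mice, against 23.6% of all genes, and for 5 of the 10 in cKO mice, against 20.2%. The 10 had a median log2 fold change of 0.49 (control) and 0.83 (cKO), beside -0.005 and -0.03 for all genes tested.

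**Figure D2:**
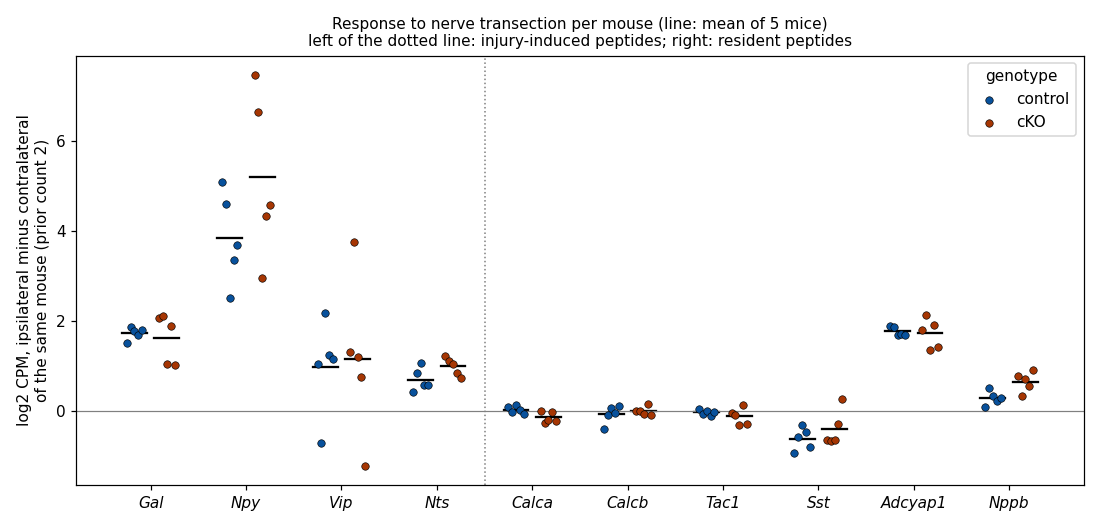
Difference in log2 CPM (prior count 2) between the ipsilateral and contralateral library of each mouse (y axis) for the 10 peptides (x axis), by genotype; each point is 1 mouse and the line is the mean of 5 mice. Gal, Npy, Nts, Adcyap1 and Nppb lie above 0 in 10 of 10 mice, Sst lies below 0 in 5 control and 4 cKO mice, and the points of Calca, Calcb and Tac1 lie between -0.40 and 0.15.

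Levels were set side by side per length of merged exons (CPM per kb). In control contralateral ganglia the mean order was Calca (351), Calcb (92.1), Tac1 (57.9), Adcyap1 (31.2), Gal (20.7), Nppb (14.6), Nts (9.41), Sst (9.10), Npy (0.889) and Vip (0.0177 CPM per kb). Only the neighbours Nts and Sst overlapped over the 5 libraries. In control ipsilateral ganglia the mean order was Calca (360), Adcyap1 (106), Calcb (87.2), Gal (68.7), Tac1 (56.7), Nppb (17.9), Nts (15.1), Npy (10.6), Sst (5.96) and Vip (0.0416 CPM per kb), and no neighbours overlapped. Adcyap1 thus stood above Calcb, and Gal above Tac1, on the lesioned side of control mice. In cKO mice the means had the same order ipsilaterally, but Gal overlapped Tac1, and Nppb overlapped Nts, Nts overlapped Npy and Npy overlapped Sst. Contralaterally in cKO mice Sst (8.18) stood before Nts (7.19 CPM per kb), and the neighbours Adcyap1 and Gal, Nppb and Sst, and Sst and Nts overlapped.

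As a share of the summed per-length level of all 10 peptides, the 4 injury-induced ones made up 5.28 ± 0.402% in control contralateral and 12.9 ± 0.462% in control ipsilateral libraries (SD, n = 5). The share was 5.23 ± 1.19% in cKO contralateral and 13.8 ± 1.84% in cKO ipsilateral libraries. In all 20 libraries the resident peptides remained the larger part, and Calca alone held 59.9 ± 2.00% in control contralateral and 49.4 ± 0.571% in control ipsilateral libraries. The corresponding Calca shares in cKO mice were 61.5 ± 1.74% and 47.4 ± 1.56%. Since these are shares, the lower share of Calca goes with the higher sum of the others. In cKO mice the mean level of Calca was itself lower ipsilaterally, at 339 against 375 CPM per kb contralaterally. In control mice it was 360 against 351 CPM per kb. The resident sum includes Adcyap1, which in control mice rose from 31.2 to 106 CPM per kb, so the injury-induced share leaves that rise out. The summed resident level there rose from 556 to 634 CPM per kb, and the summed injury-induced level from 31.0 to 94.4 CPM per kb.

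**Figure D3:**
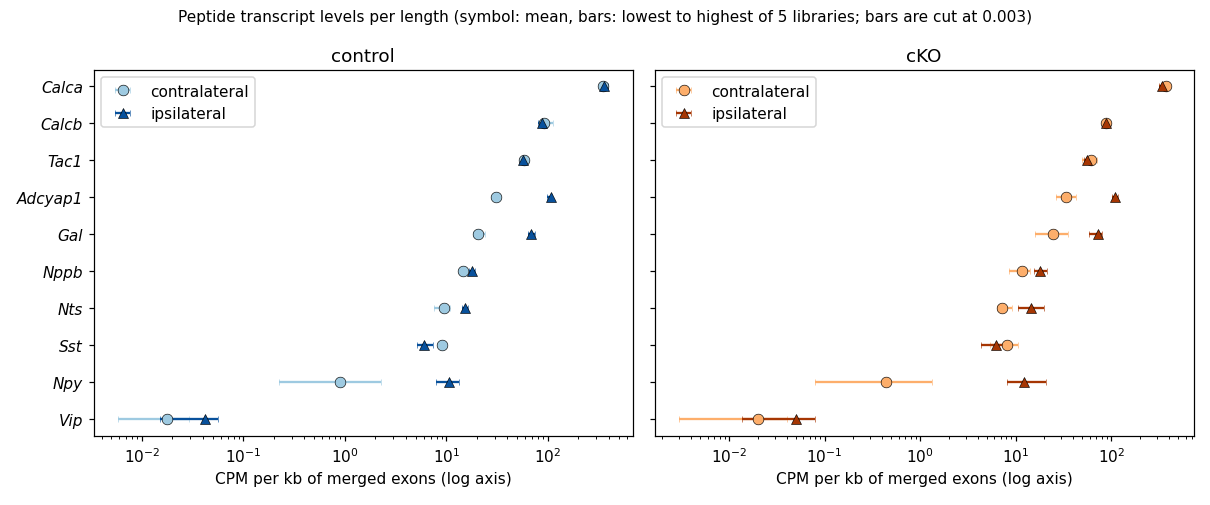
Level of each peptide transcript in CPM per kb of merged exons (x axis, log scale) in control (left panel) and cKO mice (right panel); symbols are means and bars run from the lowest to the highest of 5 libraries, with bars cut at 0.003 on the left. Adcyap1 passes Calcb and Gal passes Tac1 on the ipsilateral side, and Calca stays highest.

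Whether the genotype changed the peptides was compared on each side. On the contralateral side 0 of the 10 were called by edgeR, against 0.0735% of all genes. For 0 of the 10 the groups did not overlap, against 1.52% of all genes. An unadjusted edgeR p under 0.05 was reached by 5006 of the 28564 genes (about 1428 expected by chance). It was reached by 2 of the 10 peptides, a similar share. DESeq2 called 1 peptide, against 1.82% of the 56837 genes it was given. The 2 were Nppb, the one DESeq2 called, with a log2 fold change of cKO over control of -0.34 (SE 0.104, edgeR p 0.00375, adjusted p 0.123; DESeq2 adjusted p 0.0391), and Nts, with -0.39 (SE 0.153, edgeR p 0.0207, adjusted p 0.204). For Nppb, 4 of 5 cKO libraries (6.63 to 9.75 CPM) lay below the lowest control library (10.6 CPM), and mouse 64 (11.2 CPM) did not. Without mouse 100, the lowest library, the value was -0.25 (edgeR adjusted p 0.277), and without mouse 99 it was -0.31 (edgeR adjusted p 0.0743); over all alternatives the adjusted p ran from 0.0391 to 0.720. The 6 other genes of the Sst and Nppb neurons had log2 fold changes of -0.52 to -0.12, and none was called by edgeR; the lowest adjusted p was 0.0720 (Cysltr2). The contralateral values of Gal, Adcyap1, Tac1 and Sst had log2 fold changes between genotypes of 0.25, 0.11, 0.09 and -0.15, and none passed the test. Npy had the largest contralateral difference of the 10, with -1.02 (SE 0.658, edgeR adjusted p 0.449), which did not pass either; it was -2.08 without mouse 95, -0.29 without mouse 65 and -2.33 with mice 95 and 100 left out.

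Within the cKO contralateral group some peptides split the libraries. For Gal, Tac1, Adcyap1, Calca and Calcb mice 95 and 100 had the highest contralateral values, and for Sst they had the lowest. For Calca and Calcb the next library was close, at 645 and 111 CPM against at least 647 and 113 CPM. Atf3 was not high in them (9.51 and 9.71 CPM in a group range of 8.46 to 9.84 CPM). Summed fibroblast markers (7 of 7 tested) ran from 937 to 2245 CPM in the cKO contralateral group, with 2245 CPM in mouse 64, which was low for Gal and Adcyap1, and 1985 and 1689 CPM in mice 95 and 100, against 803 to 1359 CPM in control contralateral libraries; summed muscle markers (8 of 8 tested) reached 1896 CPM in mouse 100, against 6.77 to 71.7 CPM in the other 4. The summed list of 8 sympathetic markers was 42.8 and 32.5 CPM in mice 95 and 100, against 8.33 to 18.9 CPM in the other 3. Nearly all of that sum was Chrna3, and 7 of the 8 genes averaged under 1 CPM in this group. The sum therefore does not by itself show sympathetic cells. The part of these markers in the peptide values was not tested. With mice 95 and 100 left out, the contralateral log2 fold changes of Gal, Adcyap1, Tac1 and Sst were -0.22, -0.13, -0.06 and 0.07, each of opposite sign, and the injury log2 fold changes in cKO mice were 2.04 for Gal, 1.95 for Adcyap1 and 6.28 for Npy.

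On the ipsilateral side 0 of the 10 were called by edgeR, against 0.007% of all genes, and 0 by DESeq2, against 0.00352%; for 0 of the 10 the groups did not overlap, against 0.599%, and none of the 674 genes with an unadjusted p under 0.05 was a peptide. The largest log2 fold changes of cKO over control were 0.29 for Vip (SE 0.533), 0.20 for Npy (SE 0.481) and -0.09 for Calca (SE 0.0476), each with an edgeR adjusted p of 1.00. The responses to injury were then compared by the interaction of genotype and side, in which 0 of the 10 were called by edgeR, against 0% of all genes, and 0 by DESeq2, against 0.0211%. An unadjusted edgeR p under 0.05 was reached by 2799 of the 28564 genes (about 1428 expected by chance) and by 2 of the 10 peptides. Calca had an interaction of -0.18 (SE 0.0673, edgeR p 0.0161, adjusted p 0.485) and Nppb one of 0.36 (SE 0.147, edgeR p 0.0251, adjusted p 0.496). The higher cKO fold changes of Npy and Nts had interactions of 1.22 (SE 0.816, edgeR adjusted p 0.620) and 0.34 (SE 0.215, edgeR adjusted p 0.599), which did not pass the test. The Npy interaction was 0.59 without mouse 65, 2.32 without mouse 95 and 2.73 with mice 95 and 100 left out, still without passing. Leaving out mouse 99 took the genes called contralaterally from 21 to 3326 and in the interaction from 0 to 43, still with no peptide among them.

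**Figure D4:**
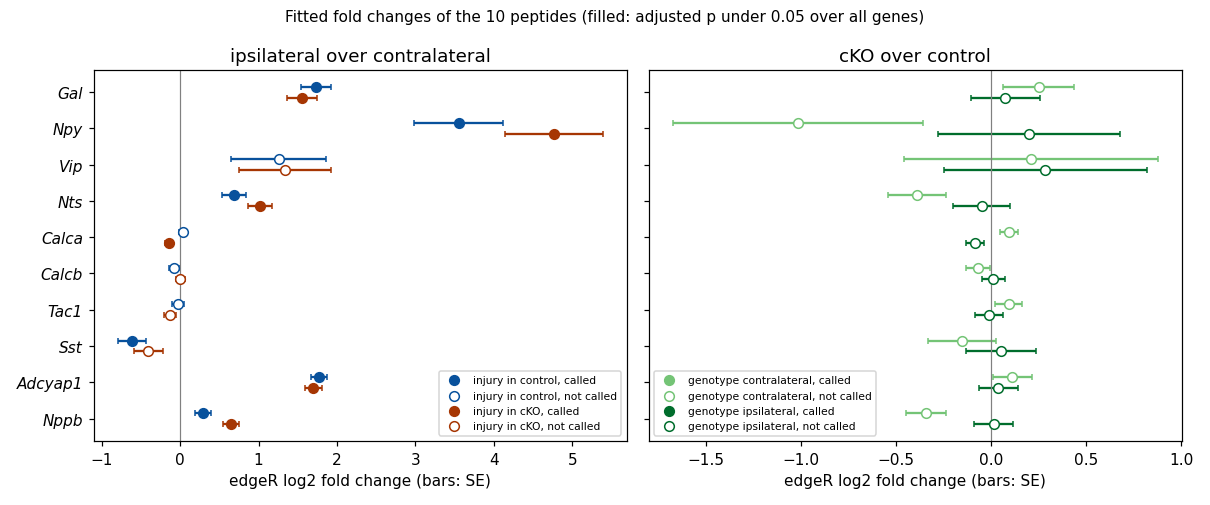
edgeR log2 fold changes (x axes) of the 10 peptides, with SE as bars; the left panel gives ipsilateral over contralateral in each genotype and the right panel cKO over control on each side. Filled symbols passed an adjusted p under 0.05 over all 28564 genes: 6 for each genotype on the left and 0 on the right.

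Genes that make, sort or receive peptides were read as background lists. Of 26 tested receptors of the 10 peptides (30 listed), 3 were higher and 6 lower after injury in control mice, and 3 higher and 8 lower in cKO mice. Over all genes 29.9% and 31.3% were called. With mice 95 and 100 left out, 6 rather than 11 receptors were called in cKO mice, and the share of all genes called was then 20.5%. Npy1r, a receptor of neuropeptide Y, went from 36.4 ± 5.31 to 75.9 ± 4.33 CPM in control mice and, in cKO mice, from 37.6 ± 4.59 to 80.0 ± 4.05 CPM (log2 fold changes of 1.06 and 1.09, edgeR adjusted p 2.73e-08 and 1.60e-08). The galanin receptors moved in opposite directions: Galr1 fell by 0.89 and 0.64 on the log2 scale, and Galr2 rose by 0.52 and 0.47, with edgeR adjusted p-values from 5.41e-07 to 0.00218. The neurotensin receptor Ntsr1 fell by 1.19 and 0.65, and the somatostatin receptor Sstr1 fell by 1.03 and 1.31 on the log2 scale in control and cKO mice (edgeR adjusted p 3.84e-06 to 0.0141).

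Of 15 genes for precursor processing and dense-core vesicles, 4 were higher and 2 lower in each genotype, against the 29.9% and 31.3% of all genes called. Vgf, which encodes a secreted granin-like precursor, went from 146 ± 13.9 to 422 ± 15.5 CPM in control mice and, in cKO mice, from 111 ± 4.41 to 427 ± 29.0 CPM (log2 fold changes of 1.53 and 1.94, edgeR adjusted p 4.25e-14 and 8.88e-16). It was the 1 gene of this list called between genotypes, lower contralaterally in cKO mice by 0.39 on the log2 scale (edgeR adjusted p 0.00483). Pcsk1, the prohormone convertase, rose by 0.62 and 0.67, while Chga, a granin of the vesicle core, fell by 0.28 and 0.18 (edgeR adjusted p 1.09e-07 to 0.0217). Qpct, which forms the pyroglutamate end of peptides such as neurotensin, fell by 0.47 in cKO mice (edgeR adjusted p 0.0179) and had -0.23 in control mice (edgeR adjusted p 0.266).

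Of 51 other neuropeptide genes, 23 were tested; 5 were higher and 1 lower in control mice, and 7 higher and 2 lower in cKO mice, against the 29.9% and 31.3% of all genes called. Adm2 (intermedin, a peptide of the CGRP family) went from 0.0487 ± 0.0355 to 4.30 ± 0.791 CPM in control mice and, in cKO mice, from 0.0281 ± 0.0196 to 3.85 ± 0.771 CPM, and was called in both. Grp (gastrin-releasing peptide), Ucn (urocortin) and Crh (corticotropin-releasing hormone) rose from at most 0.117 CPM to group means of 0.677 to 1.16 CPM, and each was called in both genotypes. With contralateral counts of 0 to 8 for Adm2, 1 to 8 for Grp, 2 to 13 for Ucn and 2 to 21 for Crh, they passed the filter of 10 counts wholly or mainly through the lesioned side. Pomc, the opioid and melanocortin precursor, rose by 0.87 and 0.88 on the log2 scale to 1.12 ± 0.115 and 1.14 ± 0.194 CPM. Nmb (neuromedin B), an abundant peptide at 98.5 ± 2.71 CPM in control contralateral libraries, fell by 0.17 and 0.22 on the log2 scale (edgeR adjusted p 0.00290 and 2.51e-04).

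The genes whose log2 CPM followed each peptide most closely over the 20 libraries were taken from 17310 genes, as a description in which the points share the side of the lesion and the mouse. For Gal they were Rras2 (r = 0.98), Adcyap1 (0.98) and Crem (0.98), and for Adcyap1 they were Smim3 (1.00), Klf6 (0.99) and Bdkrb2 (0.99). Npy was followed by Tmtc4 (0.97), Trim35 (0.95) and Slc29a2 (0.95), and Nts by Clk3 (0.95), Rhov (0.93) and Phf10 (0.93). Among resident peptides the closest genes were Cln6 for Sst (0.90), Repin1 for Nppb (0.90), Cox8a for Calca (0.92) and Esr1 for Tac1 (0.87), and the fit was loosest for Calcb (Gm12536, 0.81) and for the sparse Vip (Qrfpr, 0.82).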

How the data were processed

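The 20 libraries were stranded mRNA libraries. The authors deposited whole-number exonic counts per gene without normalization, in a table whose 20 columns all matched a library name; a deposited FPKM table was not used. The submitters' processing notes name HISAT2, Picard, mm10 and mm39 without roles or versions; the counting program and strand setting are not given in the sources used here. Symbols came from GENCODE M21 by identifier (51487 of 78258 matched, 98.1% of counts), and exon lengths from its merged exons.

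In R 4.3.3, edgeR 4.0.16 (filterByExpr with minimum count 10 and minimum total 15, TMM, robust quasi-likelihood F-test) was fitted to all 20 libraries with 1 mean per group; 28564 genes were tested. An SE is the size of the log2 fold change over the square root of F. The code was tested on simulated data. Replicate libraries differed beyond counting error (chi-square per degree of freedom 5.30 to 58.6 over 40 pairs). Reads carried no molecular identifiers. Calca and Calcb transcripts shared 12 of 1678 and 1260 stretches of 50 bases and 0 of 150, and no other gene overlapped the exons of a peptide gene.

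The members, lists and named genes were chosen with earlier results of these data known. All 10 peptides are named, whatever their values. From the receptor, processing and other-peptide lists, genes were named if called in both genotypes with a log2 fold change of at least 1 in either, or if among the 2 highest or 2 lowest called ones that averaged 1 CPM or more in the higher group. For each peptide the 3 genes most like it by Pearson's r were taken, and the first was named where space was short. Markers of the Sst and Nppb neurons were all named. Both libraries of a mouse share its number and pair the samples: their deviations from the group means correlated with a median r of 0.31 (-0.16 to 0.67 over 10 mice).

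Alternatives were DESeq2 1.42.0, RLE size factors, no filter, a mean of at least 1 CPM, limma-voom (limma 3.58.1) with mouse as a random effect, mouse as a replicate block, fitting only the compared libraries, a covariate for the 2 ranges of mouse numbers (61 to 65, 95 to 100), and leaving out each mouse. Leaving out mice 95 and 100 together was chosen after seeing the data.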

Additional observations from a re-analysis of the deposited data

Results flagged for a closer look

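Of 64 sets of 5 values examined for a single value far from the rest, 3 had one, where about 3.2 would be marked by chance. The sets were the levels of each peptide by group, its per-mouse responses by genotype, and the injury-induced share by group. They come from the same 20 libraries and are not independent. Npy in control contralateral libraries was highest in mouse 65, at 1.28 CPM against 0.415 CPM for the next (gap over range 0.751, critical value 0.71). Npy in cKO contralateral libraries was highest in mouse 95, at 0.755 CPM against 0.205 CPM for the next (gap over range 0.775). Adcyap1 in control ipsilateral libraries was lowest in mouse 97, at 372 CPM against 404 CPM for the next (gap over range 0.724).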

How the results depend on the processing

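Of 912 values of single peptides over 19 alternatives, 859 kept their direction and their side of the threshold, 14 lost a call, 6 gained one and 33 changed sign; none of those that changed sign had been called. The rises of Gal, Npy, Nts and Adcyap1 in both genotypes and of Nppb in cKO mice kept their calls in all 19 alternatives. Among the 10 peptides, 6 called in control mice became 4 to 6 when each mouse was left out (23.7 to 30.9% of all genes called) and 5 without a filter (12.6%); 6 in cKO mice became 5 to 7 (24.9 to 31.5%), and 7 with the replicate block (31.6%). On the contralateral side DESeq2 called 1 peptide (Nppb) and the other alternatives 0.
The replicate block changed no other peptide call than that of Sst in cKO mice (-0.41, edgeR adjusted p 0.0326), and of 8540 and 8939 genes called without it, 7946 and 8313 were also called with it; comparisons between genotypes are between mice, where no block can be fitted. Without a filter, Nppb in control (edgeR adjusted p 0.0634) and Calca in cKO mice (0.0506) lost their calls, as did Calca when only the libraries compared were fitted (0.0900).
Values that changed sign were, on the contralateral side, Vip with limma-voom (-0.24) and, with mice 95 and 100 left out, Gal (-0.22), Vip (-0.57), Tac1 (-0.057), Sst (0.067) and Adcyap1 (-0.13). With the same mice left out, Nts changed to 0.048 ipsilaterally, and the interactions of Gal, Tac1 and Adcyap1 to 0.31, 0.025 and 0.18; the cause was not tested.
When each mouse was left out in turn, ranges that crossed 0 were, for injury, Calcb in control (-0.11 to 0.010) and in cKO (-0.030 to 0.026) and Tac1 in control mice (-0.044 to 0.00047). Between genotypes they were Vip (-0.17 to 0.51) and Calcb (-0.099 to 0.0083) contralaterally, and Npy (-0.088 to 0.32), Nts (-0.19 to 0.044), Calcb (-0.011 to 0.055), Tac1 (-0.032 to 0.015), Sst (-0.10 to 0.16) and Nppb (-0.055 to 0.061) ipsilaterally. For the interaction they were Vip (-0.45 to 0.69), Calcb (-0.0067 to 0.12) and Adcyap1 (-0.17 to 0.012).
With a mean of at least 1 CPM, fewer genes were tested and the other neuropeptides called were 2 in control and 3 in cKO mice, beside 40.5% and 42.8% of all genes; with mice 95 and 100 left out, 6 receptors were called in cKO mice, beside 20.5% of all genes. Leaving out single mice was not run for these lists. Counting error weighs most on Vip, with 0 to 32 counts per library, and on the contralateral level of Npy, with 4 to 129.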
